A study of Sus scrofa with 11 samples.

Results

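Transcripts of 44 genes of the cell cycle and of proliferation were examined in full-thickness skin wounds of Yucatan minipigs, chosen by gene symbol from the 30376 genes of the expression table. All 44 symbols were found, and all 44 genes passed the filter on low values (at least 0.5 FPKM in at least 4 wounds), which 13956 genes passed in all. FPKM is the number of sequenced fragments scaled to the length of the gene and to a divisor for each library, so levels can be compared between genes of different length. The cells of a healing wound enter the cell cycle in G1, when D and E cyclins with their kinases relieve the block on E2F transcription factors. They copy their DNA in S phase with the MCM helicase, PCNA and the enzymes that make deoxynucleotides, and divide in M phase under CDK1 with B cyclins, PLK1 and the Aurora kinases, until the anaphase-promoting complex degrades the cyclins. In skin wounds, keratinocytes at the wound margin, fibroblasts of the granulation tissue, endothelial cells and leukocytes can all divide, and CDK inhibitors such as p21 hold cells out of the cycle.

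RNA was measured in 7 wounds of the diabetic group and 4 wounds of the non-diabetic group, all excised on day 10 from female Yucatan minipigs with the same dressing and punch procedure, and 1 library was made from each wound. Diabetes had been induced with streptozotocin (STZ), a toxin of the insulin-producing beta cells, followed by daily insulin that was stopped before wounding, whereas no such induction was described for the non-diabetic arm. The paper describes each arm as a single minipig and does not tie libraries to animals, so the spread between wounds is not a spread between animals, p-values measure only the spread between wounds, and diabetes and the animal cannot be told apart. The samples are pieces of whole tissue, in which fewer cells of a dividing type and less RNA per cell cannot be told apart.

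Libraries held 28314785 to 40168372 reads on genes, and a level of 0.0194 FPKM or less corresponded to 1 read on a gene of 2 kb in every wound. The divisor of the FPKM was not the number of reads on genes, and how it was set is not stated. It exceeded those reads in diabetic replicates 1 and 2 and non-diabetic replicates 3 and 4, and lay below them in the other wounds. In diabetic replicate 1 it was 35731346 against 31673257 reads, and in non-diabetic replicate 1 it was 28615484 against 33516206. Some wounds stood apart from the rest. Diabetic replicate 4 and non-diabetic replicate 1 were poor in epidermis: KRT5, a keratin of basal keratinocytes, was at 29.2 and 211 FPKM in them against 817 to 2861 FPKM in the other 9 wounds, and TP63, the transcription factor of the basal layer, was at 0.151 and 1.118 FPKM against 6.87 to 18.6 FPKM. KRT10, of the suprabasal layers, was at 3.47 and 9.72 FPKM in these wounds and at 37.8 to 1960 FPKM in the others. Diabetic replicate 3 held skeletal muscle transcripts, with a mean log2(FPKM + 0.5) over 7 muscle genes of 5.64 against -1 to -0.77 in the other wounds. Finally, the first letter of the library names, L in diabetic replicates 1 to 3 and non-diabetic replicates 1 and 2 and R in the others, ran with the level of the cell cycle genes. The labels do not define the letter, and the methods say only that the wounds lay in rows on either side of the spine.

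The promoters of 4 of the genes are shown as examples, picked because they hold several known cell cycle motifs close to the start. Most of the genes varied together across wounds, and whether such motifs bear on this was not tested. Each is 150 bases of the Sscrofa11.1 genome (RefSeq), from 140 before to 10 after the annotated start, read 5′ to 3′ on the strand of the gene. Capitals mark CCAAT boxes, which the factor NF-Y binds, the CHR element TTTGAA through which the MuvB complex acts on genes of G2 and M phase, and cores of the E2F type on either strand. The E2F cores searched were TTCCCGC, the form TTCGCGC, the form TTGCCGC and, as the fourth form, TTGGCGC. The last can share bases with a CCAAT box read on the opposite strand, which was so in 1 of the 44 promoters, that of FOXM1.
UBE2C: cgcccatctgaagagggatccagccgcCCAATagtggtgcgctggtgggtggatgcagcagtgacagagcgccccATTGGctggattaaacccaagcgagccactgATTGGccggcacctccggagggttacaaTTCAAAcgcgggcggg
CCNB2: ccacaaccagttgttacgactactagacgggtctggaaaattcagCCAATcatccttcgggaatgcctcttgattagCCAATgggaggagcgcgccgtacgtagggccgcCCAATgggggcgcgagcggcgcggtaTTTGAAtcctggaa
CDK1: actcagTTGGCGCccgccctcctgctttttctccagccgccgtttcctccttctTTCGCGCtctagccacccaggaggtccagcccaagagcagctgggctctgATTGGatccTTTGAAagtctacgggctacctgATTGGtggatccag
MKI67: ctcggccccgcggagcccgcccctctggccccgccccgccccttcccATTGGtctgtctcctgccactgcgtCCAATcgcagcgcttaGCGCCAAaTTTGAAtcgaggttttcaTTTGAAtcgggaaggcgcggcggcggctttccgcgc

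These windows lie at chr17:48018263-48018412 (+ strand) for UBE2C, chr1:112942209-112942358 (- strand) for CCNB2, chr14:64233805-64233954 (+ strand) for CDK1 and chr14:137296303-137296452 (- strand) for MKI67. UBE2C and CCNB2 each showed 3 CCAAT boxes and a CHR element close to the start. CDK1 and MKI67 held CCAAT boxes, the CHR element and E2F-type cores. In the longer window from 250 bases before to 50 after the start, 17 of the 44 genes (38.6%) held a CHR element against 11.6% of 13041 protein-coding genes tested, 30 (68.2%) held a CCAAT box against 35.5%, and 15 (34.1%) held an E2F-type core against 16.5%. Both CHR and CCAAT were found in 14 of the 44 genes (31.8%) and in 4.62% of all. Among the 18 genes listed as mitotic kinases, centromere, spindle or mitotic exit genes, 9 held a CHR element and 15 a CCAAT box. CDK1 and the B cyclins were listed with the cyclins and are not among these 18. Among the 13 genes of licensing, the helicase and DNA synthesis, 3 held a CHR element and 5 an E2F-type core. These matches are descriptions of the letters around 1 annotated start per gene, and no test was made on them.

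The first comparison asked whether cell cycle genes differed between diabetic and non-diabetic wounds. Of the 44 genes, 41 had a higher mean log2 level in diabetic wounds, where 52.3% of all genes tested did, and the median log2 fold change was 0.36 against 0.01 over all genes. This median was 0.21 without non-diabetic replicate 1, 0.21 with array weights and 0.64 with the replicate number as a block. However, limma called none of the 44, where a call needed an adjusted p under 0.05 with a log2 fold change beyond 0.5 in either direction, a rule that 3% of all genes passed (188 higher and 231 lower in diabetic wounds). At an unadjusted p under 0.05, 7 genes were higher in diabetic wounds (MYBL2, MCM5, TYMS, AURKA, PLK1, BIRC5 and CDC20), and 9.01% of all genes were. The 3 genes that were not higher were the G1 cyclins CCND1, CCNE1 and CCNE2, with log2 fold changes of -0.02, -0.02 and -0.03.

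**Figure D1:**
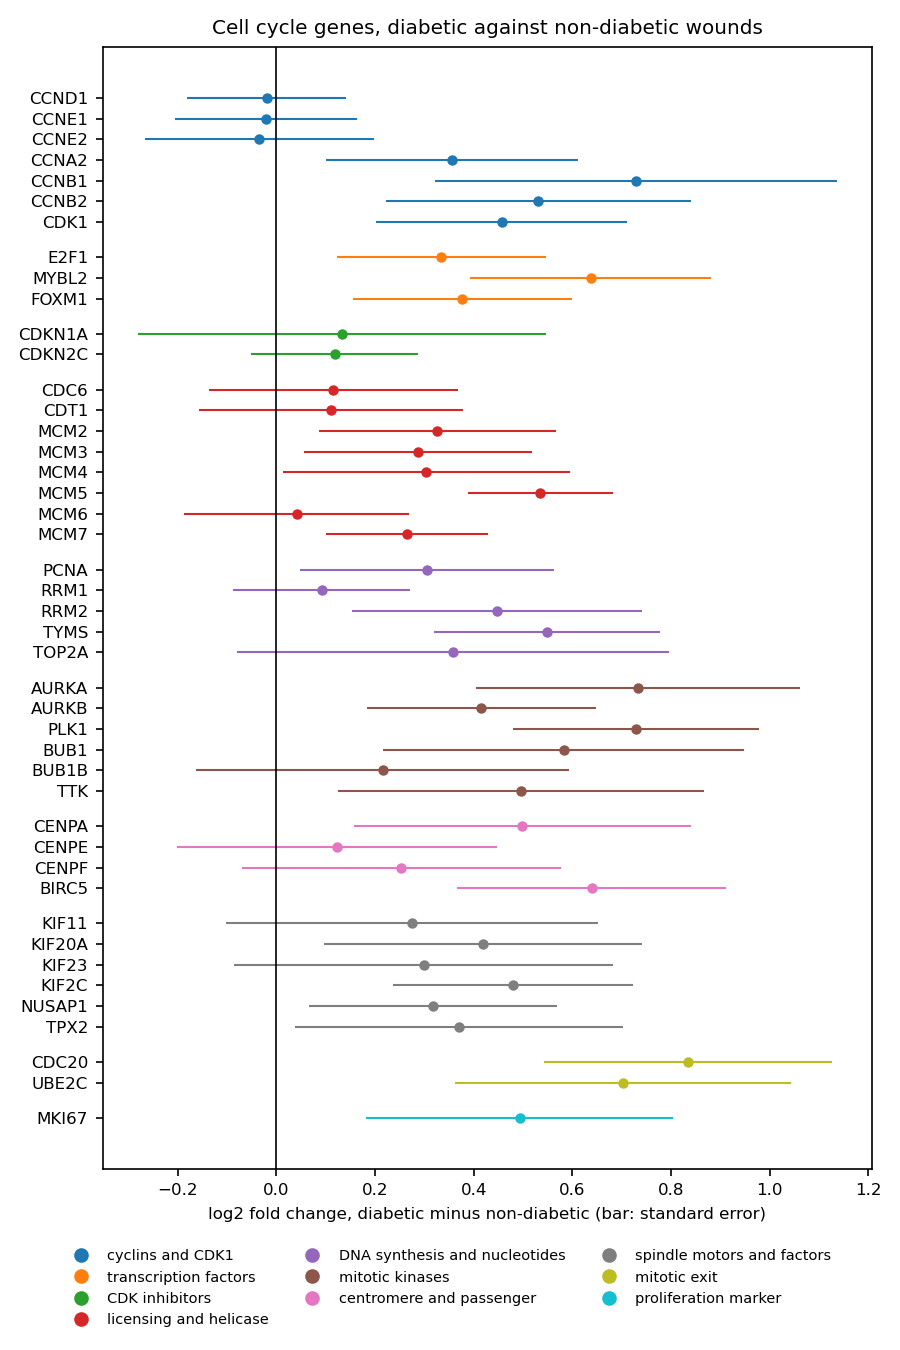
Log2 fold change of each of the 44 genes in diabetic minus non-diabetic wounds (horizontal axis, points with bars of 1 standard error from limma), listed by role (colours). Of the 44 points, 41 lie to the right of 0, and the G1 cyclins CCND1, CCNE1 and CCNE2 lie just left of 0.

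Among the cyclins and CDK1, the G1 cyclin CCND1, which couples growth factor signals to the cycle, was at 5.38 to 10.3 FPKM (median 7.11) in diabetic wounds and at 6.62, 7.32, 8.55 and 7.91 FPKM in non-diabetic replicates 1 to 4. The diabetic range enclosed the non-diabetic one. CCNE2, which drives entry into S phase and was the lowest of the role, was at 0.354 to 1.13 FPKM (median 0.462) in diabetic wounds and at 0.277, 0.498, 0.729 and 1.09 FPKM in non-diabetic wounds, again with overlap. CCNB1 (gene 397662, chr16:47338239-47348385), the mitotic cyclin and the highest of the role, was at 4.61 to 19.6 FPKM (median 9.03) in diabetic wounds and at 3.30, 5.12, 7.88 and 11.7 FPKM in non-diabetic wounds. The difference was 0.73 on the log2 scale (SE 0.41, limma adjusted p = 0.377), since the 3 highest wounds were diabetic replicates 1 to 3 but the other 4 diabetic wounds lay within the non-diabetic range. CCNB2 (0.53), CDK1 (0.46) and CCNA2 (0.36) had smaller log2 fold changes in the same direction, with adjusted p of 0.376 to 0.506.

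Of the transcription factors, MYBL2, which joins MuvB to switch on mitotic genes, had the highest level. It was at 11.06 to 26.8 FPKM (median 15.9) in diabetic wounds and at 7.76, 10.8, 11.6 and 15.3 FPKM in non-diabetic wounds. Diabetic replicates 1 to 3 and 7 lay above every non-diabetic wound, the other 3 did not, and the log2 fold change was 0.64 (SE 0.24, limma adjusted p = 0.187, two-sided exact permutation p = 0.0485). FOXM1, which acts with the same complex in G2, was the lowest of the role at 1.44 to 3.23 FPKM (median 1.80) in diabetic wounds and 0.880, 1.64, 1.42 and 2.24 FPKM in non-diabetic wounds. E2F1, the activator of S phase genes, had a log2 fold change of 0.33 and FOXM1 one of 0.38, neither past the test.

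The 2 CDK inhibitors differed in level. CDKN1A, which encodes p21, was the most abundant of the 44 genes, at 16.0 to 74.3 FPKM (median 34.5) in diabetic wounds and 20.1, 43.6, 60.7 and 27.2 FPKM in non-diabetic wounds. Its lowest levels in each group were in the epidermis-poor diabetic replicate 4 and non-diabetic replicate 1. CDKN2C, which encodes p18 and blocks CDK4 and CDK6, was at 2.61 to 5.43 FPKM (median 4.40) in diabetic wounds and at 3.35, 3.24, 4.01 and 4.63 FPKM in non-diabetic wounds. The log2 fold changes were 0.13 (SE 0.41) and 0.12 (SE 0.17), both smaller than their standard errors. That of CDKN1A turned to -0.12 with the keratinocyte level as covariate, and to -0.01, -0.03 and -0.13 without diabetic replicate 1, diabetic replicate 5 or non-diabetic replicate 1.

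The genes of origin licensing and of the MCM helicase, which load onto DNA in G1 and unwind it in S phase, were all 8 higher in the mean, with a median log2 fold change of 0.28. MCM5 (gene 100624915, on an unplaced scaffold of Sscrofa11.1) was the only one of the 44 genes whose groups did not overlap, which held for 2.69% of all genes in that direction. It was at 13.6, 12.7, 11.5, 10.5, 9.90, 8.82 and 9.64 FPKM in diabetic replicates 1 to 7 and at 5.36, 7.80, 7.89 and 8.71 FPKM in non-diabetic replicates 1 to 4. The lowest diabetic wound and the highest non-diabetic wound were next to each other, 8.82 against 8.71 FPKM, and the log2 fold change was 0.53 (SE 0.15, limma adjusted p = 0.0718). The two-sided exact permutation p of MCM5 was 0.00303, the smallest that the 330 splits of 7 and 4 wounds allow, and no correction for the 44 genes was made on it. MCM7, the highest of the role, was at 15.7 to 27.7 FPKM (median 18.9) in diabetic wounds and at 14.3, 18.0, 15.9 and 20.1 FPKM in non-diabetic wounds. CDC6, which loads the helicase and was the lowest, was at 0.173 to 1.04 FPKM (median 0.472) in diabetic wounds and at 0.240, 0.242, 0.418 and 0.696 FPKM in non-diabetic wounds. Both overlapped between groups, and the subunits of 1 helicase were not alike in the size of the difference, from 0.04 for MCM6 to 0.53 for MCM5 on the log2 scale. The order of these subunits was not tested, and the sign for MCM6 turned under another scaling, with values of -0.01 after quantile normalization and -0.03 after scaling to equal summed FPKM.

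DNA synthesis genes were likewise higher in the mean in all 5 cases, with a median log2 fold change of 0.36. PCNA, the sliding clamp of the polymerases, was at 16.0 to 39.6 FPKM (median 21.8) in diabetic wounds and at 15.8, 17.7, 23.9 and 24.9 FPKM in non-diabetic wounds. TOP2A (gene 396917, chr12:22001300-22028452), which untangles sister chromatids, was at 11.2, 14.3, 8.26, 3.57, 4.09, 3.96 and 4.35 FPKM in diabetic replicates 1 to 7 and at 2.41, 3.22, 6.35 and 9.65 FPKM in non-diabetic replicates 1 to 4. It varied over a wider range within each group than it differed between them (log2 fold change 0.36, SE 0.44). TYMS, which makes thymidylate, had a log2 fold change of 0.55 (SE 0.23, limma adjusted p = 0.229), RRM2, of ribonucleotide reductase, one of 0.45, and its partner RRM1 one of 0.09.

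Of the roles in mitosis, the kinases and the genes of exit had the larger medians, and the centromere genes (0.38) and spindle genes (0.34) were near those of DNA synthesis. All 6 mitotic kinases were higher in the mean in diabetic wounds, with a median log2 fold change of 0.54. AURKA, which builds the spindle poles, was the highest of them, at 2.57 to 10.5 FPKM (median 4.68) in diabetic wounds and at 1.57, 2.79, 3.38 and 4.01 FPKM in non-diabetic wounds. TTK, the checkpoint kinase Mps1, was the lowest, at 0.879 to 3.73 FPKM (median 1.27) in diabetic wounds and at 0.308, 0.671, 1.41 and 2.07 FPKM in non-diabetic wounds. PLK1, named here after its values were seen, was at 2.53 to 6.57 FPKM (median 3.88) in diabetic wounds and at 1.86, 2.04, 2.58 and 3.05 FPKM in non-diabetic wounds. The difference was 0.73 on the log2 scale (SE 0.25, limma adjusted p = 0.138, exact permutation p = 0.0333), and 2 of the 7 diabetic wounds lay within the non-diabetic range.

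BIRC5 (survivin), of the passenger complex that corrects chromosome attachment, was at 5.87 to 12.9 FPKM (median 7.47) in diabetic wounds and at 3.78, 3.80, 6.06 and 8.55 FPKM in non-diabetic wounds, which gave a log2 difference of 0.64 (SE 0.27, limma adjusted p = 0.237). CENPE, the kinetochore motor, was the lowest of the centromere genes, at 0.532 to 2.83 FPKM (median 1.01) in diabetic wounds and at 0.642, 0.786, 1.16 and 1.85 FPKM in non-diabetic wounds. Among the spindle genes, TPX2, which activates AURKA, was at 4.00 to 12.4 FPKM (median 6.19) in diabetic wounds and at 3.43, 4.32, 6.18 and 8.48 FPKM in non-diabetic wounds. KIF23, a kinesin of the midbody, was at 1.52 to 6.501 FPKM (median 2.39) in diabetic wounds and at 1.33, 1.78, 2.93 and 4.18 FPKM in non-diabetic wounds. In each of these genes the wounds of both groups overlapped.

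The 2 genes of mitotic exit had the highest median log2 fold change of the roles, 0.77. CDC20 (gene 397379, chr6:167886266-167890587) activates the anaphase-promoting complex, and UBE2C (gene 100153133, chr17:48018403-48021542) is its ubiquitin-conjugating enzyme. CDC20 was at 13.8, 15.6, 15.3, 4.95, 8.21, 11.2 and 11.4 FPKM in diabetic replicates 1 to 7 and at 4.05, 5.39, 6.203 and 8.57 FPKM in non-diabetic replicates 1 to 4, a log2 fold change of 0.83 (SE 0.29, limma adjusted p = 0.147). The lowest of the diabetic wounds was the epidermis-poor replicate 4, and without it CDC20 was called (log2 fold change 1.01, limma adjusted p = 0.0317), the only call among the 44 genes under any wound left out. UBE2C was at 39.4, 37.2, 33.3, 14.5, 18.5, 14.9 and 15.6 FPKM in diabetic wounds and at 10.1, 11.004, 14.1 and 22.8 FPKM in non-diabetic wounds, which gave a log2 difference of 0.70 (SE 0.34, adjusted p = 0.303). MKI67 (gene 102164100, chr14:137266622-137296312), the antigen of the Ki-67 stain, was at 7.63, 9.98, 8.48, 3.10, 3.50, 4.36 and 5.57 FPKM in diabetic wounds and at 2.38, 3.76, 4.59 and 5.27 FPKM in non-diabetic wounds, which gave a log2 difference of 0.49 (SE 0.31, adjusted p = 0.441). For UBE2C and MKI67 alike, diabetic replicates 1 to 3 stood above all non-diabetic wounds, and the other 4 diabetic wounds stood among them or near them.

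**Figure D2:**
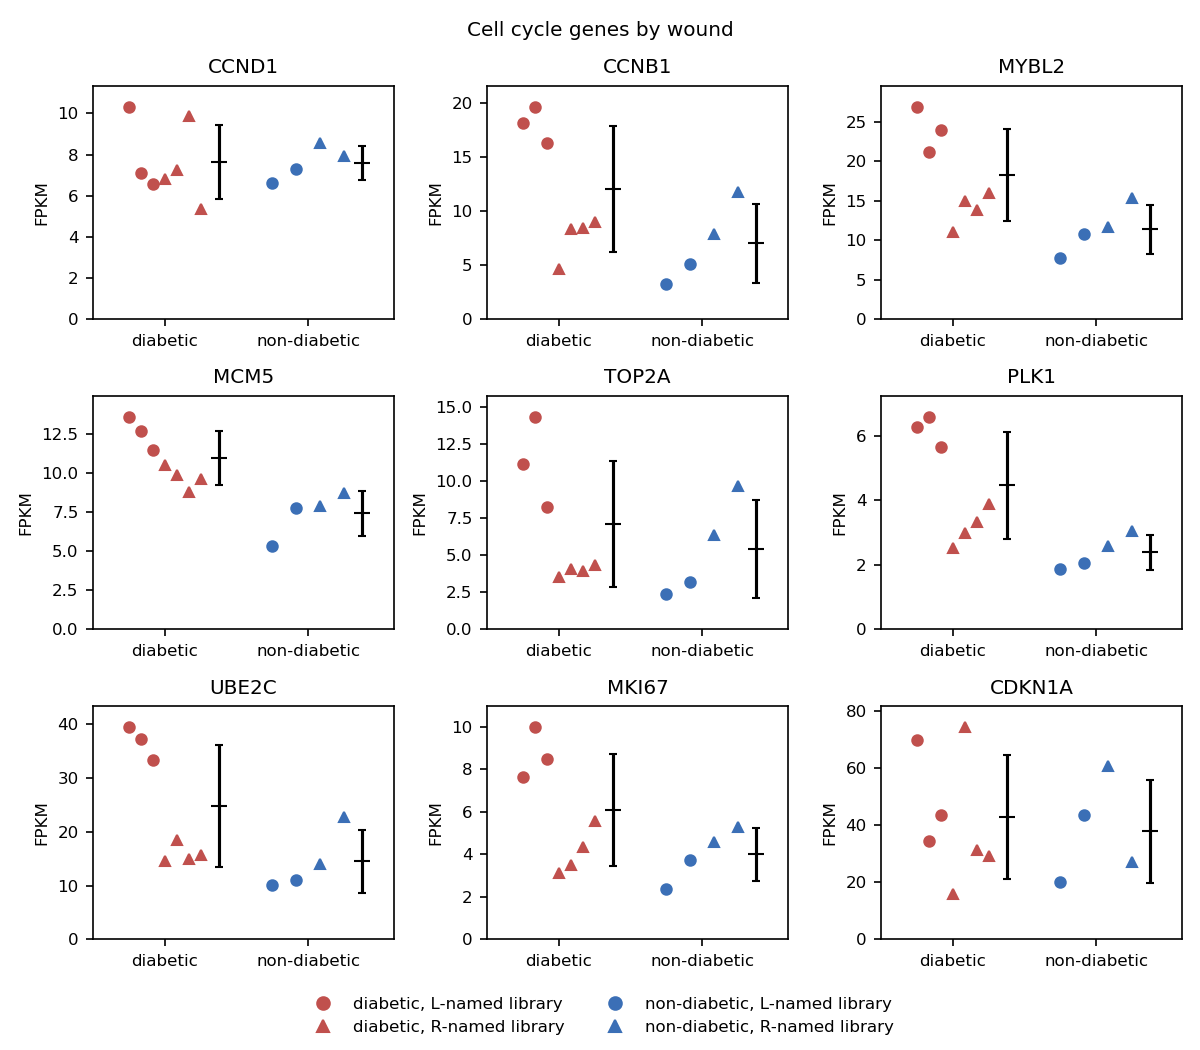
FPKM of 9 genes in each wound, with diabetic wounds in red and non-diabetic wounds in blue, circles for L-named and triangles for R-named libraries, in order of replicate number, and the mean with 1 SD in black (n = 7 and n = 4). In CCNB1, TOP2A, PLK1, UBE2C and MKI67 the 3 red circles lie above every red triangle, whereas CCND1 and CDKN1A show no such order.

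The same wounds were high or low for nearly all of the 44 genes. The log2(FPKM + 0.5) of each gene was taken relative to its mean over the 11 wounds, and the median deviation was turned back from log2 into a multiple. On this scale, the median gene was at 1.58, 1.69 and 1.40 times its mean in diabetic replicates 1 to 3. It was at 0.771, 0.864, 0.869 and 0.934 times in diabetic replicates 4 to 7. In non-diabetic replicates 1 to 4 it was at 0.591, 0.756, 0.935 and 1.19 times its mean. Diabetic replicate 2 was the highest of all 11 wounds for 29 genes and replicate 1 for 12, and non-diabetic replicate 1 was the lowest of all for 33 genes. Non-diabetic replicate 4 was the highest of its group for 42 genes. The spread within groups thus ran across roles: the SD of this median deviation over diabetic wounds was 0.47 on the log2 scale, larger than the median log2 fold change of 0.36 between groups.

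**Figure D3:**
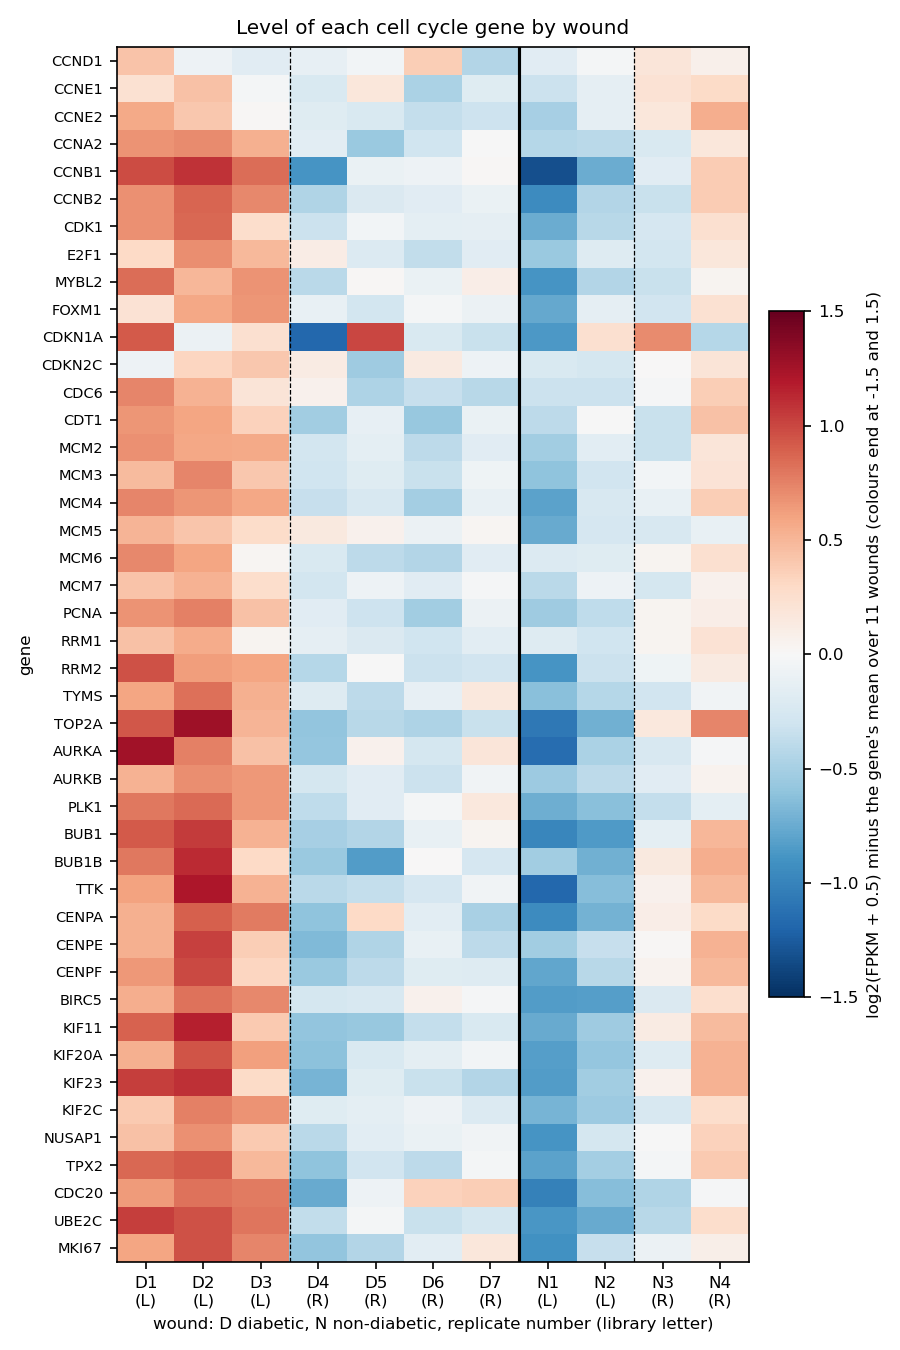
Log2(FPKM + 0.5) of each of the 44 genes (rows, by role) in each wound (columns, D diabetic, N non-diabetic, with the letter of the library name), relative to the gene's mean over the 11 wounds. Diabetic replicates 1 to 3 are above the mean in 42 or 43 genes each, and non-diabetic replicate 1 is below it in all 44.

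The letter of the library name was examined next, a split that was chosen after the values had been seen. The counts, shares and p-values by letter therefore describe a pattern already seen in these data, and are no independent support for it. All 44 genes had a higher mean in the 3 L-named than in the 4 R-named diabetic wounds, with a median log2 difference of 0.86 against 0.01 over all genes tested. For 40 of the 44 genes every L-named diabetic wound lay above every R-named one, which held for 10.2% of all genes, and the exceptions were CCND1, CCNE1, CDKN1A and CDKN2C. Without diabetic replicate 4 this count was 40, beside 12.9% of all genes, and without replicate 3, the wound with muscle, it was 41, beside 22.7% of all genes. UBE2C was 36.6 ± 3.07 FPKM (SD, n = 3) in L-named and 15.9 ± 1.83 FPKM (SD, n = 4) in R-named diabetic wounds, and TOP2A was 11.3 ± 3.03 and 3.99 ± 0.327 FPKM. CCNB1 was 18.0 ± 1.64 and 7.60 ± 2.02 FPKM, MKI67 was 8.69 ± 1.19 and 4.13 ± 1.09 FPKM, and MCM7 was 25.5 ± 2.36 and 17.4 ± 1.41 FPKM.

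In a limma fit on the 7 diabetic wounds, UBE2C was the only one of the 44 genes called (log2 difference 1.18, SE 0.12, adjusted p = 0.0358), among 7 genes called in all, or 0.0502% of those tested. Of the other 6, PBK, CENPN, NUF2 and NCAPD2 are mitotic genes as well, and MIR421 and MIR224 are microRNA genes. At an adjusted p under 0.1, 37 of the 44 genes were higher in L-named wounds, beside 2.86% of all genes. A fit on all 11 wounds with a mean for each group and letter, in which the spread was pooled over both groups, called 31 of the 44 for the same contrast, beside 1.78% of all genes called higher in L-named wounds. The 7-wound calls changed with single wounds, from 0 when any one of replicates 1, 2, 4, 5, 6 or 7 was left out to 35 when replicate 3 was left out, while the median log2 difference stayed between 0.82 and 0.94.

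In the non-diabetic group the means lay in the opposite order. All 44 genes had a lower mean in the 2 L-named than in the 2 R-named wounds (median log2 difference -0.61), and for 38 genes both L-named wounds lay below both R-named ones, as for 22.5% of all genes. None of these differences was called in the fit on all 11 wounds, in which the smallest adjusted p of the 44 genes was 0.528, 28 of them had an unadjusted p under 0.05, and 0 of all genes tested were called. Both orders held together for 35 of the 44 genes and for 5.46% of all genes. CCNB1 averaged 4.21 FPKM in L-named and 9.81 FPKM in R-named non-diabetic wounds, BIRC5 3.79 and 7.31 FPKM and UBE2C 10.5 and 18.4 FPKM. The difference of the L minus R difference between the groups was positive for all 44 genes (median 1.38 on the log2 scale), and limma called 34 of them, beside 2.69% of all genes. It was 2.70 for TOP2A (SE 0.33, adjusted p = 0.0194), 1.92 for UBE2C (SE 0.26, adjusted p = 0.0320), 1.65 for BIRC5 (SE 0.23, adjusted p = 0.0320) and 1.64 for MKI67 (SE 0.33, adjusted p = 0.0410). It was 0.35 for CCND1 (SE 0.33) and 0.99 for CDKN1A (SE 0.85), neither of which was called.

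These 34 calls rested on every wound but diabetic replicate 3. Without diabetic replicate 3 there were 38, without diabetic replicate 5 or 6 or non-diabetic replicate 3 there were 3 each, and without any one of the other 7 wounds there were 0. Without both epidermis-poor wounds there were also 0 calls, and with quantile normalization there were 2. The direction was positive for 44 of 44 genes under each of these settings.

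Within L-named libraries, the diabetic wounds were higher than the non-diabetic wounds for all 44 genes, with a median log2 fold change of 1.18, and limma called 34 genes, beside 1.78% of all genes called higher. The values were 2.00 for CCNB1 (SE 0.29, adjusted p = 0.0119), 1.80 for TOP2A (SE 0.24, adjusted p = 0.00985), 1.75 for UBE2C (SE 0.19, adjusted p = 0.00494) and 1.39 for MKI67 (SE 0.24, adjusted p = 0.0194). One of the L-named non-diabetic wounds was the epidermis-poor replicate 1, and without it there were 0 calls, with all 44 genes still higher and a median of 1.05. Without diabetic replicate 1 there were 20 calls and without diabetic replicate 2 there were 16. By role, the median log2 fold change among L-named wounds was 1.53 for the mitotic kinases, 1.66 for mitotic exit, 1.40 for the spindle genes, 1.18 for DNA synthesis and 0.86 for licensing and the helicase. The difference between roles was not tested. Within R-named libraries the median was -0.31, 39 of the 44 genes were lower in diabetic wounds, none was called higher, beside 3.27% of all genes, and TOP2A was called lower (log2 fold change -0.89, SE 0.22, adjusted p = 0.0439), beside 3.58% of all genes called lower. Without non-diabetic replicate 4 the median was -0.13 with 16 genes higher, and with any 1 wound left out the calls ran from 0 to 4. Markers of keratinocytes had larger medians in the same contrasts. The 11 basal markers had a median log2 fold change of 2.02 among L-named and -0.81 among R-named wounds, and the 15 suprabasal markers 2.31 and -0.85. The L minus R difference in diabetic wounds had a median of 1.41 for basal and 1.5 for suprabasal markers, and its difference between groups one of 2.67 and 3.29. Of these markers, 1 suprabasal one was called higher among L-named wounds and none was called in the other 3 contrasts. Every one of these contrasts held an epidermis-poor wound, R-named diabetic replicate 4, L-named non-diabetic replicate 1 or both. In these wounds the mean log2 level of suprabasal markers was 0.13 and 1.00, against 4.89 to 6.36 in the others. That of basal markers was 1.53 and 2.26, against 4.04 to 5.69. The marker medians were not computed without these wounds. The non-diabetic arm held 2 wounds in each of these contrasts, so that each rested on the spread pooled over the 4 combinations of group and letter. Between groups, every L-named diabetic wound lay above every non-diabetic wound for 28 of the 44 genes, as for 9.14% of all genes, and above non-diabetic replicate 4, the highest of that group, for 29, as for 24.8%, whereas every R-named diabetic wound did so for 1 gene, beside 9.5% of all genes.

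**Figure D4:**
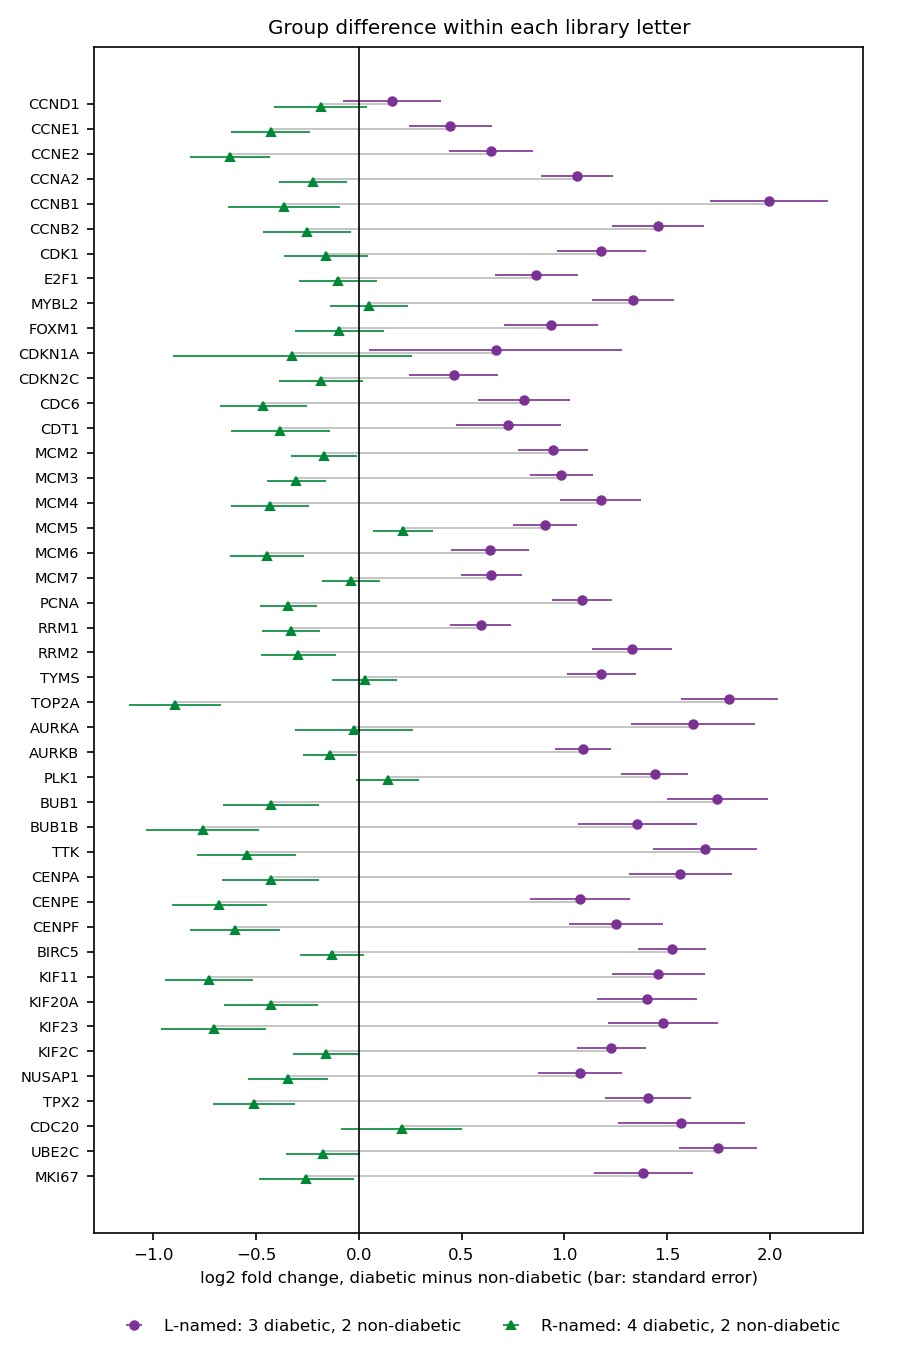
Log2 fold change of each of the 44 genes in diabetic minus non-diabetic wounds, with 1 standard error from limma, among L-named (purple circles) and among R-named libraries (green triangles). All 44 circles lie to the right of 0 and 39 of the triangles to the left of it.

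The genes were then set beside the markers of keratinocytes, since 2 wounds were poor in epidermis. Non-diabetic replicate 1 was below the other 3 non-diabetic wounds for 41 of the 44 genes, beside 31.1% of all genes. Diabetic replicate 4 was below the range of the other R-named diabetic wounds for 24 genes, within it for 15 and above it for 5, beside 29.7%, 41.5% and 28.8% of all genes. The mean log2(FPKM + 0.5) of 11 basal keratinocyte markers was 1.53 in diabetic replicate 4 and 2.26 in non-diabetic replicate 1. It was 5.69, 5.63 and 4.86 in diabetic replicates 1 to 3, 4.94, 4.87 and 4.65 in diabetic replicates 5 to 7 and 4.61, 5.13 and 4.04 in non-diabetic replicates 2 to 4. The mean of diabetic replicate 3 lay within the range of replicates 5 to 7, but single markers did not: KRT5 was at 2319 FPKM in replicate 3 against 1112 to 1278 FPKM, the desmosomal cadherin DSG3 at 27.1 against 13.98 to 17.5 FPKM, TP63 at 8.49 against 6.91 to 7.10 FPKM and the integrin ITGA6 at 21.1 against 15.5 to 18.5 FPKM. For 5 of the 11 basal markers every L-named diabetic wound lay above every R-named one, beside the 10.2% of all genes given before. The median cell cycle gene was at 1.40 times its mean in replicate 3 and at 0.864 to 0.934 times in replicates 5 to 7. Non-diabetic replicate 4, with the highest cell cycle levels of its group, had the lowest basal marker level of the 3 epidermis-bearing wounds of that group. Without both epidermis-poor wounds, the median log2 fold change of the 44 genes between groups was 0.27, with 41 genes higher and none called.

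**Figure D5:**
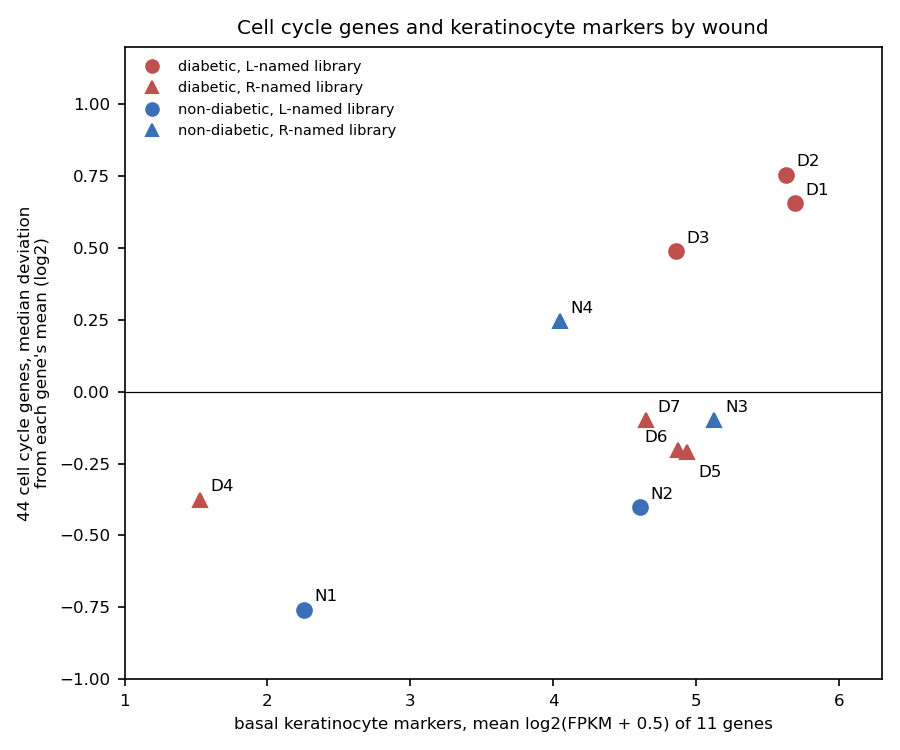
Median deviation of the 44 genes from their means over 11 wounds (vertical axis, log2) against the mean log2(FPKM + 0.5) of 11 basal keratinocyte markers (horizontal axis), 1 point per wound, D diabetic and N non-diabetic with the replicate number. D4 and N1 lie at the left below 0, and the other 9 wounds spread from below to above 0 at marker levels of 4.04 to 5.69.

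Markers of fibroblasts moved with the letters too. Median log2 L minus R differences in diabetic wounds were -0.67 for the fibroblast list, -0.37 for macrophages and -0.73 for adipocytes. They were 0.32 for T and NK cells, -0.12 for endothelial cells, -0.05 for leukocytes and -0.05 for B and plasma cells. The mean log2 level of 12 fibroblast and myofibroblast markers was 8.6, 8.401 and 9.04 in the L-named and 9.19 to 9.39 in the R-named diabetic wounds, and in non-diabetic replicates 1 to 4 it was 9.60, 9.22, 8.99 and 9.14. In both groups it was therefore lower in the letter with the higher cell cycle levels. The 6 pan-leukocyte markers were at 4.495 to 5.05 in diabetic and 4.56 to 4.92 in non-diabetic wounds, and the 11 endothelial markers at 4.09 to 4.42 and 4.08 to 4.37. In each of these 2 lists the groups overlapped and no gene was called. Macrophage markers were higher in the mean in diabetic wounds in 8 of 8 cases, and limma called 4, led by MARCO, a scavenger receptor, with a log2 fold change of 1.80 (SE 0.27, adjusted p = 0.00419). Of 7 B and plasma cell markers tested, 5 were called higher in diabetic wounds, led by CD79A, of the B cell receptor, with 1.74 (SE 0.21, adjusted p = 0.00103). KRT15, a keratin of basal cells, was the only keratinocyte marker called (2.499, SE 0.58, adjusted p = 0.0388). Unlike KRT5 and TP63, it was not lowest in the epidermis-poor wounds. It was at 6.83 FPKM in diabetic replicate 4 against 5.76 FPKM in replicate 3. In non-diabetic replicate 1 it was at 1.81 FPKM against 0.679 and 0.943 FPKM in replicates 2 and 4. LEP (leptin) was the only adipocyte marker called, lower by log2 -1.41 (SE 0.25, adjusted p = 0.0126). The 8 macrophage markers were at 3.56 to 4.05 in non-diabetic and 4.28 to 5.05 in diabetic wounds, the highest being diabetic replicate 4, a wound with low cell cycle levels. The part of any of these cell types in the cell cycle levels was not tested.

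Beyond the 44 genes, 208 other cell cycle genes of 7 lists were tested. Of these, 148 were higher in the mean in diabetic wounds, with a median log2 fold change of 0.13, and 2 were called, beside 3% of all genes, both in the list of brakes and quiescence genes. CDKN2D, which encodes the CDK4 and CDK6 inhibitor p19, was higher in diabetic wounds, at 3.50 to 5.23 FPKM against 3.07, 2.64, 3.47 and 2.32 FPKM in non-diabetic replicates 1 to 4 (log2 fold change 0.60, SE 0.13, limma adjusted p = 0.0258). E2F5, a repressive E2F, was lower, at 0.282 to 0.727 FPKM against 1.116, 0.969, 1.26 and 1.22 FPKM (log2 fold change -0.66, SE 0.15, limma adjusted p = 0.0375). For both genes the groups did not overlap. That held for 2.69% of all genes in the direction of CDKN2D, and the share in the direction of E2F5 was not counted. The nearest wounds of CDKN2D were next to each other, at 3.495 against 3.473 FPKM. Genes of these lists that were not called, such as POLD2 and RFC2, did not overlap either. Neither CDKN2D nor E2F5 followed the letter of the library, with L minus R differences in diabetic wounds of 0.03 and -0.01. Both calls depended on single wounds: among the 208 genes there were 0 calls without diabetic replicate 5 or 7 or non-diabetic replicate 1 or 2, and 1 call without diabetic replicate 3 or non-diabetic replicate 3 or 4.

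The medians of the lists are given without a test of the difference between lists. Spindle and cytokinesis genes had a median log2 fold change of 0.34 (34 of 37 higher), kinetochore and checkpoint genes 0.21 (30 of 35), cohesin, condensin and chromatin genes 0.13 (15 of 21), origin and replisome genes 0.10 (31 of 46), other cyclins, kinases and E2F genes 0.06 (14 of 23), and replication-linked repair genes -0.04 (10 of 22), with no gene called in any of these 6 lists. The brakes and quiescence genes had a median of 0.08 (14 of 24). Between L-named and R-named diabetic wounds the medians were 0.85 for spindle and cytokinesis genes, 0.70 for cohesin, condensin and chromatin, 0.62 for kinetochore and checkpoint genes, 0.55 for replication-linked repair and 0.39 for origins and the replisome, whereas that of the brakes was -0.02. Of the 208 genes, 134 had every L-named above every R-named diabetic wound, beside 10.2% of all genes, and 83 were called for the difference of L minus R between groups, all of them positive, beside 2.69% of all genes.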

How the data were processed

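Poly(A) RNA of 7 diabetic and 4 non-diabetic wounds was sequenced from strand-specific libraries. Per the submitters' processing notes, the authors' tools were fastp for trimming, HISAT2 2.2.1 for alignment to Sscrofa11.1, StringTie 2.2.3 for assembly and featureCounts 2.0.6 for counting, and the deposited table holds FPKM per gene and library. How multi-mapped reads and near-identical copies were counted is not given in the sources used here. Because the deposited unit is FPKM, limma 3.58.1 (R 4.3.3) was fitted to log2(FPKM + 0.5) of the 13956 genes that reached 0.5 FPKM in at least 4 wounds, with a trended prior and Benjamini-Hochberg adjustment over all of them. A fold change is therefore on the log2(FPKM + 0.5) scale, which understates changes of low genes. Calls needed an adjusted p under 0.05 with a log2 fold change beyond 0.5 in either direction. FPKM times gene length gave whole reads for 100% of values within a tolerance of 0.05 read, and these reads gave the depths and a voom alternative. Intervals and floors were not computed. The fits were also run on simulated reads in which genes varied independently of one another. Most of the cell cycle genes here varied together across wounds, which those simulated reads did not cover.

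The 44 genes, the other lists and the tests were chosen with earlier results of these data known, and the contrasts by library letter were added after the values had been seen. Values by wound are given for genes called, genes with a p under 0.05 and no overlap, the most and least abundant gene of each role, CDKN1A, CDKN2C, CCND1 and MKI67. Of other lists, called genes are named (at most 4 per list), for keratinocytes KRT5, KRT10 and TP63, and for other cell types the called marker with the smallest adjusted p. No listed row was found for 6 symbols outside the 44, which were not analysed here. Wound profiles correlated at 0.865 to 0.980, and no 2 were identical. Promoter windows were read from the RefSeq genome with samtools 1.23.1. Alternatives were other pseudocounts, filters, scalings, weights, covariates, a replicate block and leaving out wounds.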

Additional observations from a re-analysis of the deposited data

Results flagged for a closer look

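Among 152 groups of values checked for a wound far from the others, none of the 44 cell cycle genes stood out, and 4 marker lists did, 1 of them in both groups. Chance flags about 1 in 20 groups. The mean log2(FPKM + 0.5) of basal keratinocyte markers was 1.53 in diabetic replicate 4, far below the other diabetic wounds. The suprabasal keratinocyte markers were at 0.129 in the same wound and at 1.00 in non-diabetic replicate 1, each far below the rest of its group. The leukocyte markers were at 4.92 in non-diabetic replicate 4, above the 3 other wounds of that group, and the skeletal muscle markers were at 5.64 in diabetic replicate 3.

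The difference between L-named and R-named libraries was not the same in the groups, by limma's interaction term: 34 of the 44 cell cycle genes were called, all with a more positive difference in diabetic wounds. It was 2.70 for TOP2A, 1.92 for UBE2C, 1.65 for BIRC5 and 1.64 for MKI67 on the log2 scale. The split was chosen after the values were seen, the letters are not defined by the labels, and the calls depended on single wounds.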

How the results depend on the processing

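Between diabetic and non-diabetic wounds, no cell cycle gene of the 44 was called under 12 of 12 planned changes of pseudocount, filter, scaling, weights, prior, block or covariate, without both epidermis-poor wounds together included, nor with voom. Leaving out 1 wound gave 0 to 1 calls. The median log2 fold change ran from 0.21 to 0.53 with 1 wound left out. The labels do not say that the replicate numbers pair the wounds, and the diabetic group holds numbers that the non-diabetic group lacks. The deviations of same-numbered wounds correlated at -0.267, 0.215, 0.0678 and -0.483, which cannot decide whether the numbers pair them. With the number as a block the median was 0.64, with 44 genes higher and 0 called. Among the 208 other cell cycle genes, the 2 calls became 1 with a pseudocount of 0.1 or 1, no filter, the strict filter, equal summed FPKM, the letter as a covariate or voom, became 0 with the replicate block or without both epidermis-poor wounds, and ran from 0 to 2 with 1 wound left out.

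Of single genes, MCM6 turned to -0.00996 with quantile normalization, -0.0294 with equal summed FPKM, -0.126 with array weights and -0.0340 with the keratinocyte level as covariate. Array weights also turned CDC6 (-0.0805), CDT1 (-0.0240), RRM1 (-0.0340), BUB1B (-0.0250) and CENPE (-0.0716), the covariate turned CDKN1A (-0.124) and CENPE (-0.0280), and the block turned CCND1 (0.00323), CCNE1 (0.0948) and CCNE2 (0.181). With 1 wound left out, log2 fold changes crossed 0 in 6 genes, over -0.126 to 0.399 for CDKN1A, -0.0756 to 0.132 for MCM6, -0.0407 to 0.325 for CENPE, -0.0932 to 0.0528 for CCND1, -0.13 to 0.0722 for CCNE1 and -0.206 to 0.140 for CCNE2. CDC20 was called only without diabetic replicate 4.

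For the contrasts by letter, the 34 interaction calls became 2 with quantile normalization, 41 with equal summed FPKM, 33 with voom, 0 without both epidermis-poor wounds, and ran from 0 to 38 with 1 wound left out. The 1 call between letters in diabetic wounds became 0 with quantile normalization, with voom and without the poor wounds, 3 with equal summed FPKM and 31 in the fit on all 11 wounds, and ran from 0 to 35. Where the cause is not given by the smaller number of wounds, the cause was not tested. Scaling moved the median of all genes by less than 0.1 between diabetic and non-diabetic wounds. That shift was not computed for the contrasts by letter. The lack of replicate animals limits every comparison, and 2 non-diabetic wounds per letter limit those by letter.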
